A study of Nicotiana tabacum with 15 samples.

Results

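The 150 genes described here were the ones that dropped together in 3 of the 9 parental root libraries of a tobacco hybrid study. The lower libraries were replicate 1 of G, replicate 2 of J and replicate 2 of K, named G1, J2 and K2 below, so that each parent had a lower library and a pair of higher ones. A gene was scored on log2(FPKM + 1) as its lowest value in the other 6 parental libraries minus its highest value in G1, J2 and K2, and the 150 highest scores among 69500 gene models were taken. The genes were thus chosen by their FPKM in the 9 parental libraries, which are given as a description without a test, while the 6 hybrid libraries had no part in the choice.

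Roots of Nicotiana tabacum at the seedling stage were the source of the RNA, taken from 2 mothers, G70 (G) and K326 (K), from the father J (JCP, Jiucaiping No.2) that both crosses share, and from the F1 hybrids GJ (G70×JCP) and KJ (K326×JCP). Each genotype had 3 libraries, and no treatment is given. Whether the 3 came from separate plants or from a shared pool of RNA is not stated. A p-value thus compares libraries that may differ only technically. The sample titles name leaf while the tissue entry and the paper give root. This was not checked with marker genes, because 0 IDs of the gene table were matched in the RefSeq gene table of tobacco at hand, and no function is given to any gene below. Values are FPKM (fragments scaled to gene length and to the total of mapped fragments), and library depth cannot be read from them.

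Tobacco is an allotetraploid, so that many of its genes exist as a pair of similar copies, one from each ancestral species. The root takes up water and minerals and is the organ in which nicotine is made. In RNA from whole roots, fewer cells of a type and less RNA per cell cannot be told apart. In a hybrid study the interest lies in whether the F1 follows a parent, lies between the parents or lies outside their range, and a gene group that differs strongly between replicates of the same parent makes the parental range itself wide.

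Measured to the nearest library of each group, the hybrids lay nearer to the 6 higher parental libraries than to the 3 lower ones in summed FPKM. The summed FPKM of the 150 genes was 2457 in G1, 3673 in J2 and 2361 in K2, and between 8340 (K1) and 12857 (G2) in the other 6 parental libraries. It was 8498 in GJ1, 8494 in GJ2 and 6403 in GJ3, and 15407 in KJ1, 10553 in KJ2 and 13570 in KJ3. All hybrid libraries were thus above all 3 lower parental libraries, GJ lay near or under the lower end of the 6 higher ones, and KJ in the middle of their range or above it. Per genotype the sums were 7798 ± 1208 FPKM in GJ and 13177 ± 2451 in KJ, against 8815 ± 5573 in G, 8416 ± 4156 in J and 6995 ± 4129 in K (mean ± SD, n = 3 each). The spread within each parent was larger than any distance between the parental means, which the choice of genes brings about. The parental SDs are therefore not comparable with those of the hybrids.

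**Figure D1:**
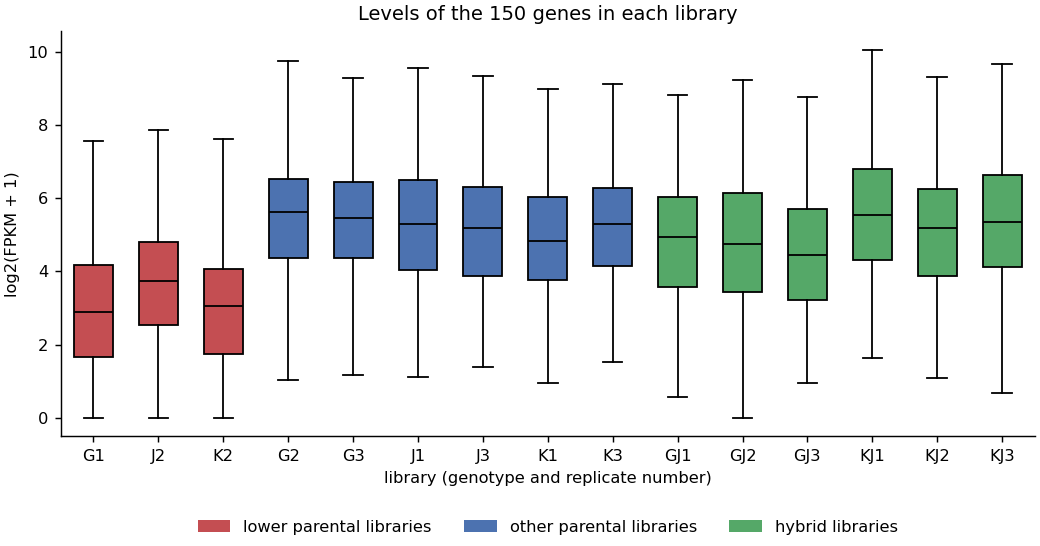
Boxes show the levels of the 150 genes as log2(FPKM + 1) in each of the 15 libraries (line, median; box, quartiles; whiskers, lowest and highest gene), with G1, J2 and K2 in red, the other parental libraries in blue and the hybrids in green. The median gene was at 6.47 FPKM in G1, 12.4 in J2 and 7.24 in K2, between 27.4 and 48.6 in the blue libraries and between 20.9 and 45.2 in the green ones.

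The genes were of moderate to high level and reached 1 FPKM in enough libraries for all 150 to pass the filter on low values (1 FPKM or more in 3 or more libraries), which 37232 genes passed. Their mean over the 15 libraries had a median of 32.5 FPKM, with a range of 1.24 to 545, against a median of 6.79 over all genes tested. By this mean, 24 genes were under 10 FPKM, 78 at 10 to 50, 38 at 50 to 200 and 10 at 200 or more. The difference of log2(FPKM + 1) that the rule uses is compressed at low FPKM.

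The drop was deepest in G1 and shallowest in J2. Within its own genotype, the median gene was lower by a log2 difference of -2.30 in G1, -1.52 in J2 and -1.96 in K2 than the mean of the other 2 libraries. Expressed as a ratio of FPKM, the other 2 libraries were 5.89, 3.06 and 4.66 times as high at the median, over the 142, 146 and 146 genes that were above 0 in G1, J2 and K2. J2 set the upper edge of the lower libraries in 122 of the 150 genes, and K1 set the lower edge of the higher libraries in 85. Over all genes tested, 1852 (4.97%) had the 6 libraries above the 3 without overlap, which all 150 genes show by choice. The opposite order, with the 3 above the 6, was more common and held in 5435 genes (14.6%).

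The median gene of all those tested was at 7.04 to 7.37 FPKM in G1, J2 and K2, 6.17 to 6.90 in the other parental libraries and 5.43 to 6.71 in the hybrids, so that this library-wide measure separated G1, J2 and K2 too, in the direction opposite to the 150 genes. Genes with at least 1 FPKM numbered 34898 to 35535 in G1, J2 and K2, 34147 to 35034 in the other parental libraries and 32891 to 34319 in the hybrids. The 100 most abundant genes held 10.3% to 10.7% of the summed FPKM in G1, J2 and K2, 9.50% to 10.6% in the other parental libraries and 10.8% to 12.7% in the hybrids. The part of these measures in the levels of the 150 genes was not tested.

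The highest score, 1.72, belonged to Nitab4.5_0008298g0010. It was at 28.8 FPKM in G1, 58.7 in J2 and 46.0 in K2, and its other 6 parental libraries ran from 195 to 309 with a median of 237. In the hybrids it was at 218, 199 and 121 FPKM in GJ1, GJ2 and GJ3 and at 312, 206 and 312 in KJ1, KJ2 and KJ3. Every hybrid library was thus above the highest of the 3 lower parental libraries, and GJ and KJ overlapped in their range.

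Nitab4.5_0000319g0270 was at 49.6, 62.2 and 44.3 FPKM in G1, J2 and K2 and at 177 to 331 (median 242) in the other 6. Its GJ libraries were at 333, 245 and 189 FPKM and its KJ libraries at 630, 384 and 492. All KJ libraries were above every parental and every GJ library. Nitab4.5_0010993g0020 had 12.3, 12.4 and 8.98 FPKM in the 3 lower libraries and 36.4 to 128 (median 61.3) in the other 6, with 56.8, 18.1 and 28.6 FPKM in GJ and 160, 109 and 97.7 in KJ. Here GJ2 and GJ3 lay between the lower and the higher parental libraries, whereas the KJ libraries did not overlap with GJ.

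Of the other genes among the 8 highest scores, Nitab4.5_0001841g0120 was at 8.17 to 16.6 FPKM in G1, J2 and K2, 42.8 to 69.2 in GJ and 68.7 to 124 in KJ. Nitab4.5_0009623g0010 was at 6.44 to 8.71 FPKM in the 3 lower libraries, 16.4 to 26.0 in GJ and 19.1 to 28.9 in KJ, and its hybrids overlapped almost fully. Nitab4.5_0000953g0030 was at 0.19 to 1.10 FPKM in the 3 lower libraries, 1.28 to 3.49 in GJ and 3.49 to 8.35 in KJ. In all 3 of these genes every hybrid library was above every one of the lower parental libraries. The same held for Nitab4.5_0000008g0500, with 2.64 to 5.65 FPKM in the lower libraries against 10.4 to 22.5 in GJ and 35.0 to 72.1 in KJ, and for Nitab4.5_0010678g0010, with 4.45 to 10.04 FPKM against 26.4 to 47.0 in GJ and 59.7 to 81.5 in KJ.

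**Figure D2:**
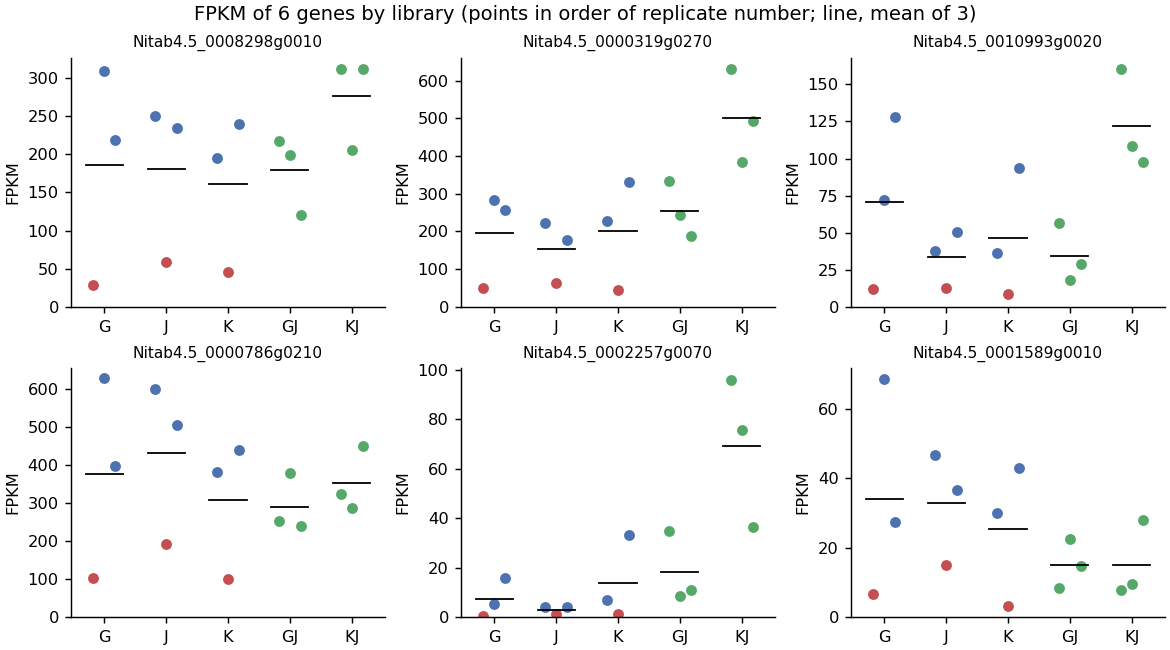
FPKM of 6 of the 150 genes in each library, by genotype, with G1, J2 and K2 in red, the other parental libraries in blue, the hybrids in green and the mean of 3 libraries as a line. In the first 5 panels all hybrid points lie above the red points of the parents, while in Nitab4.5_0001589g0010 hybrid points reach down to 7.68 FPKM, among the red ones.

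The edge of the list was not a break. Of the 4 genes just inside, Nitab4.5_0012261g0010, Nitab4.5_0000913g0050, Nitab4.5_0006391g0020 and Nitab4.5_0001589g0010 had scores of 0.853, 0.850, 0.849 and 0.846. Of the 4 genes just outside, Nitab4.5_0000888g0010, Nitab4.5_0000116g0330, Nitab4.5_0000300g0240 and Nitab4.5_0000903g0090 had 0.846, 0.845, 0.844 and 0.844. Nitab4.5_0000888g0010, for example, was at 2.95, 24.4 and 9.75 FPKM in G1, J2 and K2 and at 44.6 to 99.3 in the other 6 parental libraries.

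The gap between the parental levels was used as a scale for the hybrids, with 0 at the highest of G1, J2 and K2 and 1 at the lowest of the other 6 parental libraries, both on log2(FPKM + 1). On this scale the median gene lay at 1.01 in GJ1, 1.00 in GJ2 and 0.66 in GJ3, and at 1.69 in KJ1, 1.21 in KJ2 and 1.61 in KJ3. GJ3 was the only hybrid library with its median gene inside the gap by more than 0.01. At or above the upper edge were 75, 75 and 40 genes in GJ1, GJ2 and GJ3 and 117, 95 and 126 in KJ1, KJ2 and KJ3. At or below the lower edge were 11, 5 and 16 genes in GJ and 5, 6 and 6 in KJ. Neither count by single library was made over all genes tested, so whether these numbers are unusual is not known.

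**Figure D3:**
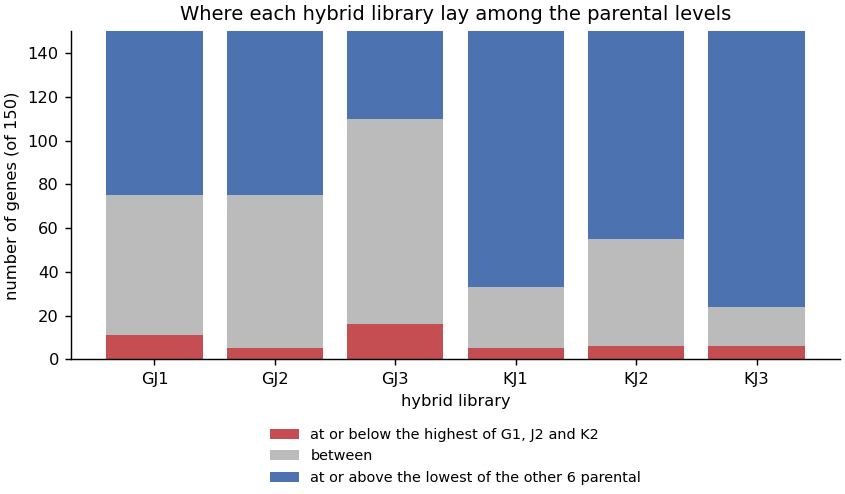
Stacked bars give, for each hybrid library, how many of the 150 genes were at or below the highest of G1, J2 and K2 (red), between the parental levels (grey), or at or above the lowest of the other 6 parental libraries (blue). The red part is 5 to 16 genes in each bar, and the blue part is 40 to 75 genes in GJ and 95 to 126 in KJ. Such counts were not made over all genes tested.

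Taken by gene, all 6 hybrid libraries were above G1, J2 and K2 in 123 of the 150 genes, against 10.2% of all genes tested. All 3 GJ libraries were above these parental libraries in 126 genes (14.4% of all genes tested) and all 3 KJ libraries in 138 (14.6%), and 0 genes had all 3 libraries of either hybrid at or below them. All 3 libraries reached the upper edge in 27 genes for GJ (58.1% of all genes tested) and in 92 genes for KJ (43.1%). All 3 stayed under it in 44 genes for GJ (12.4% of all genes tested) and in 14 for KJ (26.1%). Since the rule set the parental levels of the 150 genes apart, these shares and those over all genes are side by side as a description. Without GJ2 the count for GJ under the upper edge was 70, and without KJ1 or KJ3 the count for KJ was 22 or 31.

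Above all 9 parental libraries, KJ had 26 genes with all 3 libraries (7.29% of all genes tested) and GJ had 2 (5.76%). Below all 9 parental libraries there were 0 of the 150 genes in GJ (9.98% of all genes tested) and 0 in KJ (24%). The rule put G1, J2 and K2 low in the 150 genes, which leaves little room below all 9, so these shares are not comparable. In single libraries, 64 genes of KJ1, 31 of KJ2 and 47 of KJ3 exceeded every parental library, against 19, 6 and 3 in GJ1, GJ2 and GJ3. KJ1 held the highest value of all 15 libraries in 53 genes and G2 in 42. G1 held the lowest in 74 and K2 in 71, which follows largely from the rule. These counts by single library were not made over all genes tested, so whether they are unusual is not known.

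The farthest above the gap were Nitab4.5_0007090g0020, Nitab4.5_0025760g0010 and Nitab4.5_0002257g0070, whose median positions over the 6 hybrid libraries were 3.63, 3.59 and 3.51. Nitab4.5_0007090g0020 was at 8.96, 10.9 and 9.91 FPKM in G1, J2 and K2 and at 22.7 to 95.9 (median 41.7) in the other 6. It had 90.8, 84.7 and 128 FPKM in GJ and 199, 163 and 184 in KJ, so that KJ was above all parents and GJ overlapped with the highest parental library alone. Nitab4.5_0002257g0070 was at 0.46, 1.16 and 1.19 FPKM in G1, J2 and K2 and at 3.88 to 33.0 (median 6.11) in the other 6, with 34.9, 8.63 and 10.9 FPKM in GJ and 96.0, 75.7 and 36.2 in KJ.

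In the 3 genes with the lowest median position, some but not all hybrid libraries lay within the range of the lower parental libraries. Nitab4.5_0001589g0010 was at 6.49, 14.8 and 3.18 FPKM in G1, J2 and K2 and at 27.5 to 68.5 (median 39.9) in the other 6, and the hybrids had 8.24, 22.5 and 14.7 FPKM in GJ and 7.68, 9.56 and 27.9 in KJ. Nitab4.5_0000212g0050 had 1.60, 5.10 and 3.19 FPKM in the lower libraries and 3.22, 5.24 and 2.19 in GJ and 12.3, 5.67 and 3.64 in KJ. In Nitab4.5_0006391g0020 the hybrids were at 16.6, 35.6 and 20.6 FPKM in GJ and 19.7, 16.8 and 44.4 in KJ, with J2 at 22.5 and the lowest of the other 6 at 41.3. Their median positions over the hybrid libraries were -0.36, -0.21 and -0.18, and in each of them GJ and KJ overlapped.

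The difference between the hybrids is the comparison that the score of the genes did not use, and it was fitted on the 6 hybrid libraries alone. The genes were mostly higher in KJ than in GJ in their means, with a median log2 difference of 0.63 over the 150 genes (quartiles 0.29 and 0.96) against -0.14 over all genes tested. The difference was above 0 in 140 of the 150 genes, against 31.0% of all genes tested, and ranged from -0.53 to 2.56. In 65 genes all KJ libraries were above all GJ libraries (7.28% of all genes tested), and in 0 genes they were all below (23.8%). With median-of-ratios scaling, which moved the median of all genes tested from -0.14 to 0.01, the KJ libraries were all above GJ in 85 genes (13.8% of all genes tested) and all below in 0 (12.3%).

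No gene of the 150 passed the test between the hybrids. A call needed an adjusted p up to 0.05 in limma (Benjamini-Hochberg over all genes) and a log2 difference of 1 or more in size. By this, 0 were called higher in KJ (0.113% of all genes tested) and 0 lower (0.0779%), in a comparison that called 42 and 29 of the 37232 genes. At an unadjusted p under 0.05, 81 were higher in KJ (6.46% of all genes tested) and 0 were lower (16.6%). The lowest adjusted p among the 150 was 0.0871 in this limma test, and 34 genes had a log2 difference of at least 1 without a call. The genes share the same 6 libraries, so their common direction is that of these libraries and not of 150 separate measurements. Without GJ1, 14 of the 150 genes were called higher in KJ (0.733% of all genes tested) and 0 lower (0.671%), in a comparison whose calls over all genes rose from 42 to 273 and from 29 to 250. GJ1 was the highest library of GJ in 45.3% of the 150 genes against 27.6% of all genes tested, and the lowest in 21.3% against 46.3%.

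**Figure D4:**
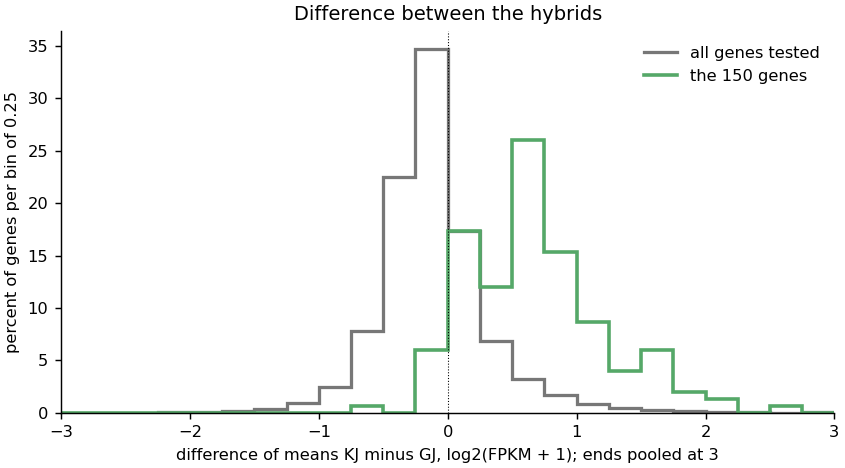
Percent of genes per bin of 0.25 of the difference KJ minus GJ in log2(FPKM + 1), for the 150 genes (green) and all 37232 genes tested (grey), with values beyond 3 pooled in the end bins. The green line has its median at 0.63 and the grey line at -0.14.

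Single genes showed the width of this comparison. Nitab4.5_0000028g0200 was at 315, 205 and 214 FPKM in GJ and 824, 519 and 512 in KJ, a log2 difference of 1.33 ± 0.249 (SE) with a 95% interval of 0.73 to 1.92 (adjusted p = 0.102, limma). Nitab4.5_0004833g0040 was at 423, 262 and 245 FPKM in GJ and 1064, 628 and 619 in KJ, a log2 difference of 1.31 ± 0.290 with an interval of 0.62 to 2.00 (adjusted p = 0.118, limma). In both genes, which are among the 5 with the highest mean FPKM, the KJ libraries were above all GJ libraries and also above all parental libraries. Nitab4.5_0010993g0020 had a log2 difference of 1.91 ± 0.403 with an interval of 0.96 to 2.87 (adjusted p = 0.117, limma). For Nitab4.5_0008298g0010, with the highest score, the difference was 0.64 ± 0.271 with an interval of -0.0013 to 1.28 (adjusted p = 0.217, limma).

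Of the other genes with the highest mean FPKM, Nitab4.5_0002173g0060 was at 187, 233 and 196 FPKM in G1, J2 and K2 and at 502 to 860 (median 638) in the other 6. Its GJ libraries were at 452, 593 and 435 FPKM and its KJ libraries at 750, 569 and 817, which overlap. Nitab4.5_0001675g0070 was at 83.8, 145 and 51.2 FPKM in the lower libraries, 237, 314 and 184 in GJ and 478, 324 and 465 in KJ. Here KJ was above GJ without overlap, though KJ2 and GJ2 were close.

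The genes also varied between the libraries of each hybrid. The SD between the 3 libraries on the log2 scale had a median of 0.385 in GJ and 0.371 in KJ over the 150 genes, against 0.166 and 0.20 over all genes tested, which are lower in level. GJ3 was the lowest library of GJ in 84 genes (25.6% of all genes tested) and KJ2 the lowest of KJ in 97 (23.4%). The median gene was 1.34 times higher in the other 2 GJ libraries than in GJ3, and 1.39 times higher in the other 2 KJ libraries than in KJ2. The same ratios in the parents were 3.06 to 5.89, but these are large by the choice of genes. The ratios therefore do not show whether hybrids vary less than parents.

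By the libraries in which they were highest, most of the 150 genes fell into a pair of patterns. In 55 genes GJ1 was the highest of GJ and KJ1 the highest of KJ (12.7% of all genes tested), and in 48 genes these were GJ2 and KJ3 (21.1%). The first pattern, of which Nitab4.5_0000319g0270 and Nitab4.5_0010993g0020 are examples, had a median log2 difference of KJ minus GJ of 1.08. The second, with Nitab4.5_0000786g0210 and Nitab4.5_0001589g0010, had 0.30. In the parents G3 exceeded G2 in 30 of the 55 genes of the first pattern and in 11 of the 48 of the second (52.9% of all genes tested), while K3 exceeded K1 in most genes of both patterns, 51 and 36 (42.6%). Both patterns were set after the values were seen and were not tested.

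The IDs of the 150 genes carried 141 different first numbers, and 16 genes shared theirs with another of the 150. The largest such group was Nitab4.5_0000786g0190, Nitab4.5_0000786g0200, Nitab4.5_0000786g0210 and Nitab4.5_0000786g0230, and 4 pairs among the 150 had neighbouring IDs. Reads of similar neighbouring copies can be shared between them, and whether these genes are alike in sequence was not analysed here. Nitab4.5_0000786g0210 was at 103, 192 and 100.2 FPKM in G1, J2 and K2 and at 382 to 628 (median 472) in the other 6, with 251, 380 and 238 in GJ and 325, 287 and 449 in KJ. Nitab4.5_0000786g0230 was at 108, 131 and 48.7 FPKM in the lower libraries, 131, 259 and 132 in GJ and 231, 176 and 316 in KJ. Nitab4.5_0000786g0200 had its GJ and KJ libraries at 25.9 to 45.5 and 32.4 to 57.7 FPKM. In these 3 genes the highest hybrid libraries were GJ2 and KJ3, while in Nitab4.5_0000786g0190, with 68.7, 69.9 and 52.8 FPKM in GJ and 113, 99.2 and 85.0 in KJ, they were GJ2 and KJ1.

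For comparison, the 150 genes with the highest score in the opposite direction, raised in G1, J2 and K2, summed to 5240 to 5549 FPKM in these libraries and to 1129 to 2443 in the other 6 parental libraries. In the hybrids they summed to 1333, 1404 and 1803 FPKM in GJ and 1212, 1023 and 1144 in KJ. At or below the highest of the other 6 parental libraries were 96 to 127 of these genes in GJ and 123 to 132 in KJ. The same count was not made over all genes tested, so whether these numbers are unusual is not known. On both lists KJ lay farther from G1, J2 and K2 than GJ did. For the raised list this is also the direction of all genes tested, whose median log2 difference of KJ minus GJ was -0.14 without further scaling. Both lists come from the same 9 parental libraries and are read in the same 6 hybrid libraries, so they are not independent. Of 9 genes that the text of the paper names, 0 were among the 150 described here. The 150 are a small share of the 37232 genes tested, so this 0 says little about the named genes.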

How the data were processed

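According to the paper and the labels, the authors dropped reads that were poor or under 25 nt, aligned the others to the genome of cultivar K326 and quantified genes with RSEM. The paper names Tophat2, whereas the labels list HISAT2 and StringTie, all without versions. The deposited values are FPKM with 2 decimals for 69500 gene models in 15 libraries. Of low values, 21.6% were within 0.1 of a whole multiple of the smallest value above 0 of their gene in any library. Libraries may differ in depth, so this share could not show whether reads can be recovered from the FPKM. The paper gives a range of clean reads per sample, but the depth of each library was not used here. No count test was run.

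Genes that reached 1 FPKM in 3 or more libraries were tested. KJ and GJ were compared on log2(FPKM + 1) with limma 3.58.1 in R 4.3.3 (trend and robust options, two-sided, Benjamini-Hochberg over 37232 genes, intervals of 95%), fitted on the 6 hybrid libraries and tested on simulated data. The fold limit is that of the study, whose text gives its p limit without naming an adjustment, whereas adjusted p-values were used here. Python 3.11.15 with pandas 2.3.3, NumPy 2.4.6 and matplotlib 3.10.9 did the rest.

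Members and lists were chosen with earlier results of these data known. Named genes were the 8 highest scores, 4 inside and 4 outside the edge, the 5 highest in mean FPKM, the 5 largest called differences each way (of which there were 0), the 3 highest and 3 lowest in hybrid position and the largest group by ID. Alternatives were a pseudocount of 0.1, other filters and scalings, a fit of all 15 libraries, no trend and robust options, a replicate block, 75 or 300 genes, and leaving out each library. A fit of 12 libraries without G1, J2 and K2 and the counts without overlap after scaling were added after the data were seen. Promoter and protein sequences were not used here.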

Additional observations from a re-analysis of the deposited data

How the results depend on the processing

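The position of the median gene over the parental gap was 0.83 to 1.03 in GJ and 1.37 to 1.76 in KJ under the alternatives run (leaving out a library, 0.83 to 1.00 and 1.37 to 1.65). All differed from the main values, 1.00 and 1.61, by less than the SD of the 3 library medians (0.198 in GJ, 0.257 in KJ). GJ still moved from the upper edge into the gap in some of them, to 0.83 without GJ1 or GJ2 and 0.87 without K1. The median log2 difference of KJ minus GJ over the 150 genes was 0.51 to 0.81 (leaving out a library, 0.51 to 0.76), while that over all genes tested went from -0.14 to 0.01 with median-of-ratios scaling. Chosen anew, 110 of the 150 genes were shared with a pseudocount of 0.1, 136 with median-of-ratios scaling and 135 with quantile normalization.

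The count of genes called higher in KJ was 0 in the main analysis and 0 under 12 of 15 alternatives, against 11 with a replicate block, 0 to 14 without 1 library, where 14 came without GJ1, and 8 in the fit of 12 libraries without G1, J2 and K2. The cause was not tested. Called lower were 0 in all of them. Same-numbered hybrid libraries deviated from their genotype means with r = 0.27, -0.05 and -0.04 across genes for numbers 1, 2 and 3. GJ1 correlated best with KJ1, whereas GJ2 correlated best with KJ3 (0.30) and GJ3 with KJ2 (0.185). Deviations within a genotype sum to 0, so these values depend on each other, and a pairing by number was not tested. Over all genes tested, calls higher and lower in KJ were 42 and 29, and 27 and 7 with no filter, 20 and 16 at a mean of at least 5 FPKM, 71 and 92 in the fit of all 15 libraries, 157 and 109 with the replicate block, 165 and 200 without G1, J2 and K2, and 16 to 273 and 2 to 250 without 1 library. Called lower were 16 with median-of-ratios scaling and 19 with quantile normalization.

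Genes with all libraries below the upper edge numbered 44 to 70 in GJ and 14 to 31 in KJ without 1 library, and 3 of 75 in KJ on the shorter list. The difference KJ minus GJ of Nitab4.5_0001589g0010 was -0.12, 0.049 with median-of-ratios scaling and -0.65 to 0.22 without 1 library. Without 1 library it was -0.32 to 0.40 for Nitab4.5_0006391g0020 and -0.054 to 0.31 for Nitab4.5_0009623g0010.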
